A study of Homo sapiens with 6 samples.

Results

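The integrin and laminin genes of NCI-N87 cells were examined after knockdown of SCAMP1, a membrane protein of recycling and secretory vesicles. The genes were protein-coding genes of the deposited table named as an integrin alpha subunit (18 genes), an integrin beta subunit (8 genes) or a laminin alpha, beta or gamma chain (11 genes). These were 37 of the 58735 genes listed. They were taken by name, but the families were chosen with earlier results of these data known. NCI-N87 is an established human gastric carcinoma cell line. Its cells were infected with lentivirus and selected with puromycin (2 μg/ml) as stable populations. The 3 control libraries (shNC in the labels, shCtrl in the study) came from cells with the empty vector, and the 3 knockdown libraries (shScamp1 in the labels, shS1#1 in the study) from cells with 1 shRNA against SCAMP1. As the control vector held no shRNA, effects of an shRNA as such and of SCAMP1 loss cannot be told apart. The libraries are labelled as biological replicates, but whether they came from separate infections is not stated, so the p-values measure the spread between these libraries. Levels are given as FPKM, the fragments counted on a gene divided by its length and by the size of the library. The length was that of all annotated exons of a gene together, so a gene expressed as shorter transcripts is understated. Levels of different genes, and the shares, ratios and scarcest chains below, can therefore be compared only roughly.

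Integrins are membrane receptors made of 1 alpha and 1 beta subunit, and the pairing of the subunits sets the ligand. Laminins are secreted trimers of 1 alpha, 1 beta and 1 gamma chain and form the sheet of the basement membrane on which epithelial cells rest. Laminins with the alpha 3 chain of LAMA3 anchor epithelia through the integrins α6β4, the receptor of hemidesmosomes, and α3β1. Integrin receptors are internalised and recycled continually through endosomes, and in epithelial carcinomas laminins and their receptors are often studied for their part in adhesion and migration.

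The libraries held between 14311769 and 15988700 reads on genes, recovered from the FPKM steps, so the members tested rested on 54 to 11893 reads each per library. SCAMP1 was at 12.6, 12.1 and 11.5 FPKM in the shNC libraries and at 1.70, 1.37 and 1.99 FPKM in the shScamp1 libraries, a log2 fold change of -2.78 (standard error, SE, 0.14, adjusted p = 0.000248 by limma), in the direction that its labels give. The epithelial markers EPCAM, CDH1, KRT8, KRT18, KRT19, CLDN4 and ERBB2 summed to 5528 to 5812 FPKM in shNC and 9234 to 10149 FPKM in shScamp1 libraries. Of these 7, 5 were called higher (adjusted p under 0.05 by limma), against 8.82% of all genes tested. The leukocyte and platelet markers PTPRC, CD3E, CD14 and PF4 summed to between 0.337 and 0.656 FPKM in every library, and PF4 had 0 reads. Of the 5 fibroblast markers, COL1A2, DCN and LUM had 0 reads, PDGFRB had at most 4 reads and COL1A1 was at 0.476 to 0.773 FPKM (log2 fold change 0.08, adjusted p = 0.865), and together they summed to 0.533 to 0.689 FPKM in shNC and 0.476 to 0.773 FPKM in shScamp1 libraries. The 3 endothelial markers summed to 0.139 to 0.235 FPKM in shNC and 0.381 to 0.612 FPKM in shScamp1 libraries, most of it from VWF, while PECAM1 had at most 1 read and CDH5 at most 4 reads. Shares of cells and RNA per cell cannot be told apart in bulk libraries. The library shScamp1 replicate 2 stood apart from its group. Its share of mitochondrial reads was 9.21%, against 6.09% to 6.78% in the other 5 libraries. Among the 20 integrin and laminin genes tested, it was the highest of the 3 shScamp1 libraries for 16 genes, against 41.3% of all genes tested. The median log2 difference of the 20 genes from the shNC mean was 0.27, 0.54 and 0.42 in shScamp1 replicates 1, 2 and 3, and that of all 4575 genes longer than 6000 bases was -0.02, 0.16 and 0.03. The part of this library in the results was not tested, and values without it are given beside the called integrin and laminin genes.

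Of the 37 genes, 20 averaged 0.5 FPKM or more across the libraries and were tested with limma on log2(FPKM + 0.1) among 15556 genes. In shScamp1 cells 10 of the 20 rose and 0 fell at a Benjamini-Hochberg adjusted p under 0.05, against 8.82% of all genes tested that were called higher and 5.17% that were called lower. Without the shScamp1 replicate 2 library 11 rose and 0 fell, against a background of 14.7% and 13.2%. When 1 shNC library was left out, 5 rose in each of the 3 fits, while the number of all genes called higher fell from 1372 to between 644 and 671. With the replicate number as a block, 6 rose and 0 fell, against 4.53% and 1.63% of all genes. Of the 10, 8 were integrin subunits and 2 were laminin chains, and ITGA2 and ITGB8 passed an absolute log2 fold change of 1 as well, against 2.42% of all genes tested. The FPKM of the groups did not overlap, with shScamp1 higher, for 14 of the 20 genes, against 20.4% of all genes. The median log2 fold change was 0.41 over the 20 genes (0.35 without shScamp1 replicate 2) and -0.02 over all genes tested. The other 10 genes tested did not pass the threshold.

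**Figure D1:**
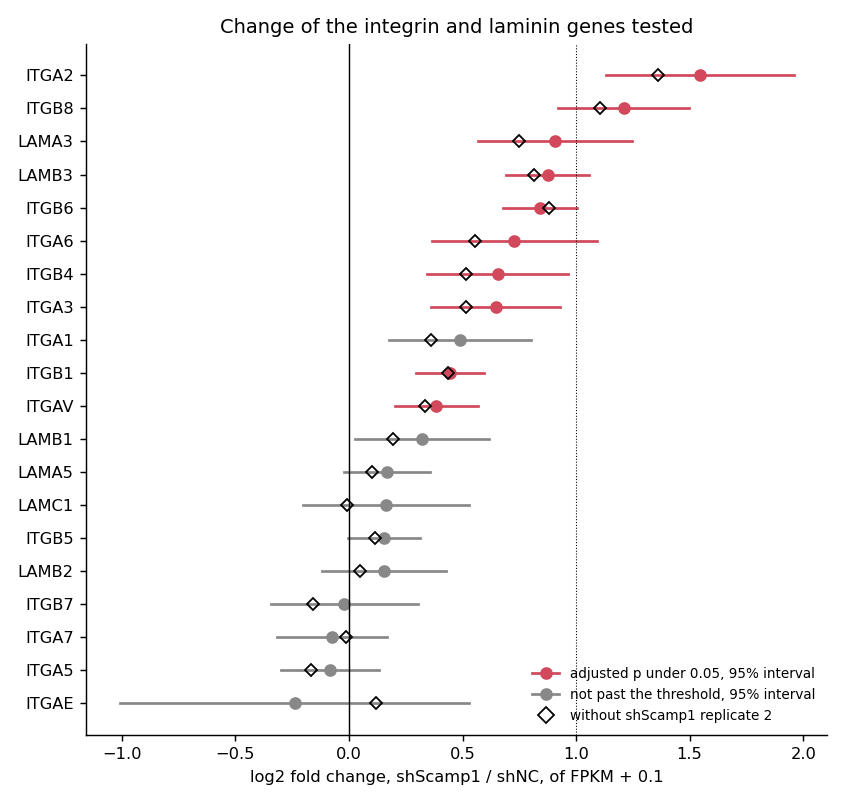
Log2 fold change (shScamp1 over shNC, of FPKM + 0.1) of the 20 integrin and laminin genes tested, ordered by size. Filled points with lines are the limma estimate and its 95% interval from all 6 libraries, red where the adjusted p was under 0.05, and open diamonds are the estimates without shScamp1 replicate 2. ITGA2 and ITGB8 lie beyond 1 (dotted line), with ITGA2 at 1.54, and the open diamonds lie nearer to 0 for all red genes but ITGB6.

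The laminin chains LAMB3 and LAMA3 rose in shScamp1 cells. LAMB3, the beta 3 chain, was at 75.9, 76.2 and 77.4 FPKM in shNC and at 135, 153 and 134 FPKM in shScamp1 libraries. Its level was above that of the other laminin chains described here in both groups, and the groups were far apart. Its log2 fold change was 0.87 (SE 0.08, adjusted p = 0.00132), 0.81 without shScamp1 replicate 2, and the gene is on chromosome 1 (209614870 to 209652466, reverse strand, GRCh38). LAMA3, the alpha 3 chain, was at 11.2, 11.4 and 10.8 FPKM in shNC and at 17.99, 26.1 and 19.6 FPKM in shScamp1 libraries. Here shScamp1 replicate 2 was well above the other 2, which still did not overlap with the controls. The log2 fold change of LAMA3 was 0.91 (SE 0.14, adjusted p = 0.0105), 0.75 without shScamp1 replicate 2 (adjusted p = 0.000684), and it missed the threshold when shNC replicate 1, 2 or 3 was left out (adjusted p 0.0502 to 0.0554). LAMA3 is on chromosome 18 (23689443 to 23956222, forward strand) and has long and short transcripts with different starts, which FPKM per gene does not separate.

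LAMC1, LAMA5, LAMB1 and LAMB2 did not pass the threshold. LAMC1, the gamma 1 chain of most laminins, was at 16.5, 16.8 and 17.3 FPKM in shNC and at 15.9, 23.9 and 17.6 FPKM in shScamp1 libraries. The groups overlapped, and only shScamp1 replicate 2 was clearly above the controls. Its log2 fold change was 0.16 (95% interval -0.20 to 0.53, adjusted p = 0.507), and it was -0.01 without that library. LAMA5, the alpha chain of laminin-511 and laminin-521, was at 46.7, 47.9 and 49.6 FPKM in shNC and at 51.2, 59.2 and 51.8 FPKM in shScamp1 libraries. These groups did not overlap, but the log2 fold change of 0.17 (95% interval -0.02 to 0.36, adjusted p = 0.209) did not pass. LAMB1 had a log2 fold change of 0.32 (95% interval 0.03 to 0.61 before adjustment, adjusted p = 0.134) at 4.05 to 6.36 FPKM. LAMB2 had a log2 fold change of 0.15 (95% interval -0.12 to 0.43, adjusted p = 0.398) at 9.66 to 13.2 FPKM. These intervals leave room for changes up to 0.61 on the log2 scale in LAMB1, so the 4 chains are not shown to have stayed the same. LAMA1, LAMA2, LAMA4, LAMB4 and LAMC3 were below the filter, with at most 43 reads in any library. Among them LAMA4, a chain of vessel and muscle laminins, had 5, 2 and 1 reads in the shNC libraries and 21, 40 and 26 reads in the shScamp1 libraries, with no overlap. Tested without the filter, its adjusted p was 0.0603. The summed FPKM of the endothelial markers above was higher in the same libraries, but most of it came from VWF, while PECAM1 and CDH5 had hardly any reads. Its part was not tested. LAMB4 had 0 reads in all 6 libraries.

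**Figure D2:**
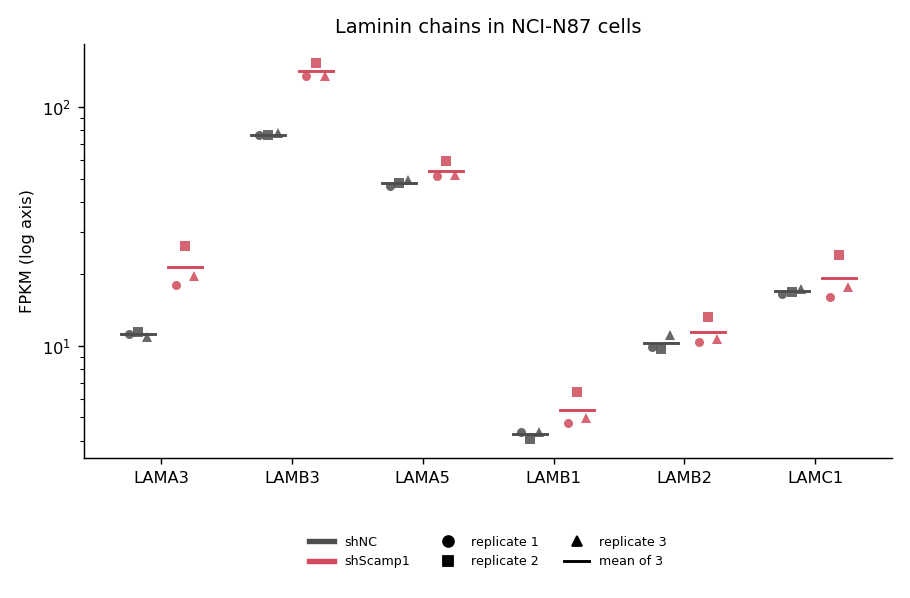
FPKM of 6 laminin chains, on a log axis, with 1 point per library (shape gives the replicate number), grey for shNC and red for shScamp1, and a bar at the mean of 3. LAMA3 and LAMB3 at the left are separated between the groups, with LAMB3 at 76.5 against 141 FPKM, while LAMB2 and LAMC1 overlap.

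The shares of LAMA3 and LAMB3 in their laminin families were higher in every shScamp1 library than in every shNC library (exact permutation test, two-sided, p = 0.1 each, the smallest that 3 against 3 libraries allow). LAMA3 made up 18.8% ± 0.764 of the alpha chains in shNC and 27.9% ± 2.30 in shScamp1 libraries (SD, n = 3 each). LAMA5 nevertheless remained the main alpha chain, at 71.6% in shScamp1 libraries. LAMB3 made up 84.1% ± 0.671 of the beta chains in shNC and 89.4% ± 0.635 in shScamp1 libraries (SD, n = 3 each). The geometric mean ratio of LAMB3 to LAMA3 was 6.86 in shNC and 6.69 in shScamp1 cells, and overlapped between the groups (exact permutation test, two-sided, p = 0.9).

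**Figure D3:**
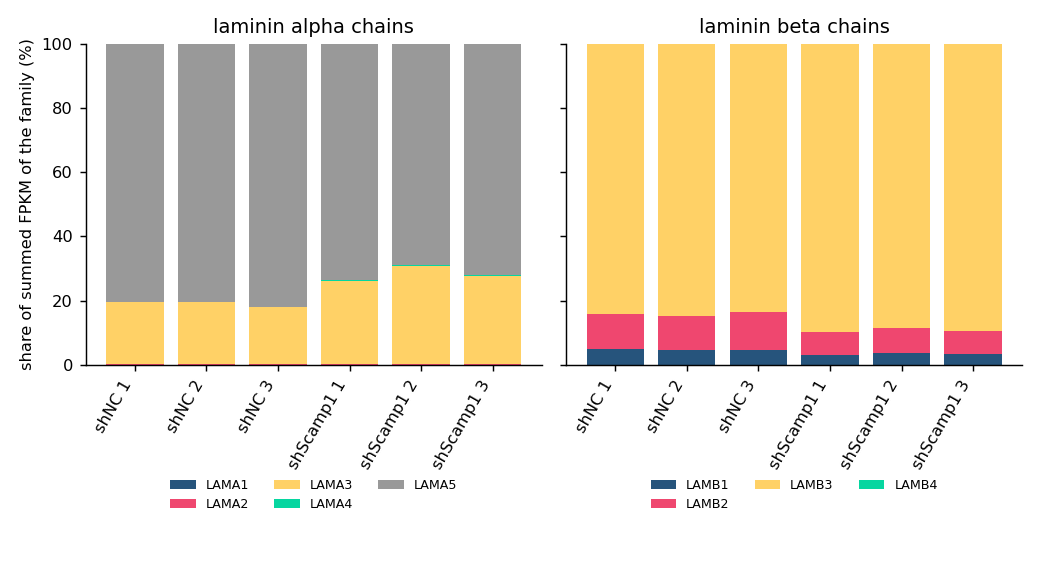
Share of each chain in the summed FPKM of its laminin family (%), 1 bar per library, with alpha chains at the left and beta chains at the right. The shares of LAMA3 (mean 18.8% against 27.9%) and LAMB3 (84.1% against 89.4%) are larger in each shScamp1 bar than in each shNC bar.

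Trimers were counted by their scarcest chain, which limits how many the RNA could supply. All chains were above the filter for 4 of the 13 trimers considered, laminin-311, laminin-321, laminin-511 and laminin-521. Laminin-511 and laminin-311 were both limited by LAMB1, so they share its values, 4.25 FPKM in shNC and 5.37 FPKM in shScamp1 cells. This was 1.26-fold higher without overlap, as for 20.4% of all genes tested, and 1.15-fold without shScamp1 replicate 2. LAMB1 itself did not pass the threshold. Laminin-521 was limited by LAMB2, at 10.2 and 11.4 FPKM, laminin-321 was at 10.1 and 11.4 FPKM, and for both the groups overlapped (exact permutation test, two-sided, p = 0.3 each).

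Promoter sequences from RefSeq (GRCh38.p14) were searched for the letters TGANTCA, where N is any base, since LAMA3 and LAMB3 rose together. The letters include TGACTCA and TGAGTCA, which AP-1 transcription factors bind, but are wider than these, and so are the shares of windows below. The letters TGANTCA read the same on both strands, and each window ran from 250 bases before to 50 bases after an annotated start. Of the 37 genes, 26 had at least 1 window, and 3 held the letters, in 3 of 33 windows (9.09%), against 7.71% of all 35116 windows. The stretches of 30 bases around each match are shown because they belong to LAMA3 and LAMB3, which rose, and to ITGA5, which did not pass the test, with the matched letters in capitals.
LAMA3, chr18:23872884-23872913, forward strand, 125 bases before the start: ctggcacaggcTGACTCAtgtgtgaagttt
LAMA3, chr18:23872940-23872969, forward strand, 69 bases before the start: ccttcctcaccTGAGTCAggcaggcccggg
LAMB3, chr1:209651423-209651452, reverse strand, 67 bases before the start: gtcagccactcTGACTCAttcactttgggc
ITGA5, chr12:54419254-54419283, reverse strand, 6 bases before the start: cctccccgcgtTGAGTCAttcgcctctggg
The LAMA3 matches lie before a start inside the gene, that of its short transcripts, and the LAMB3 match before 1 of its 3 listed starts. The windows of ITGA2, ITGA6, ITGAV, ITGB1, ITGB6 and ITGB8, which also rose, did not hold them. ITGA3, ITGA7 and ITGB4 had no window. The matches are letters in a sequence and not measured binding sites.

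Of the subunits of laminin receptors, ITGA6, ITGB4 and ITGA3 rose as well, and ITGA7 did not pass the threshold. ITGA6, the alpha subunit of α6β4 and α6β1, was at 63.4, 62.2 and 63.4 FPKM in shNC and at 91.2, 133 and 93.9 FPKM in shScamp1 libraries. All knockdown libraries were above the controls, and shScamp1 replicate 2 was far above the other 2. Its log2 fold change was 0.73 (SE 0.15, adjusted p = 0.0262) and 0.55 without that library (adjusted p = 0.000333). ITGB4, which pairs with ITGA6 only and carries the long cytoplasmic tail that binds the keratin anchors of hemidesmosomes, was at 47.4, 46.5 and 50.8 FPKM in shNC and at 66.8, 92.1 and 71.0 FPKM in shScamp1 libraries. The pattern across libraries was like that of ITGA6, with shScamp1 replicate 2 highest. The log2 fold change of ITGB4 was 0.65 (SE 0.13, adjusted p = 0.0224) and 0.51 without that library. ITGA3, the alpha subunit of α3β1, was at 45.4, 46.9 and 47.7 FPKM in shNC and at 65.9, 87.2 and 67.8 FPKM in shScamp1 libraries. It had a log2 fold change of 0.65 (SE 0.12, adjusted p = 0.0170), 0.52 without shScamp1 replicate 2. The calls of these 3 genes were not kept in every fit with 1 library left out. Without shNC replicate 1, 2 or 3 the adjusted p of ITGA3 was 0.0728 to 0.0801. Without 1 of these or shScamp1 replicate 3 it was 0.0562 to 0.103 for ITGA6 and 0.0615 to 0.0990 for ITGB4. With any 1 library left out, the log2 fold change was 0.52 to 0.72 for ITGA3, 0.55 to 0.83 for ITGA6 and 0.51 to 0.75 for ITGB4. ITGA7, a laminin receptor subunit of muscle, was low, at 1.82 to 2.20 FPKM, and had a log2 fold change of -0.07 (95% interval -0.32 to 0.17, adjusted p = 0.653).

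ITGB1, which pairs with more alpha subunits than any other beta subunit, was the most abundant integrin subunit of shNC cells. It was at 79.6, 79.1 and 75.8 FPKM in shNC and at 103, 108 and 108 FPKM in shScamp1 libraries. The knockdown libraries were close to each other and well above the controls. Its log2 fold change was 0.44 (SE 0.06, adjusted p = 0.00722), nearly the same without shScamp1 replicate 2 (0.44), and its adjusted p was at most 0.0489 with any single library left out and 0.0561 with the replicate number as a block. The ratio of ITGA6 to ITGB4 was 1.31 in shNC and 1.38 in shScamp1 cells, with overlap (exact permutation test, two-sided, p = 0.3). The geometric mean ratio of ITGA6 to ITGB1 was 0.806 in shNC and 0.982 in shScamp1 cells, without overlap (exact permutation test, two-sided, p = 0.1). On the log2 scale it was -0.33, -0.35 and -0.26 in the shNC libraries. In shScamp1 replicates 1, 2 and 3 it was -0.18, 0.31 and -0.21, so much of the difference in means came from replicate 2.

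Of the collagen receptor subunits, ITGA2 rose and ITGA1 did not pass the threshold. ITGA2, the alpha subunit of α2β1, was at 6.53, 6.99 and 6.18 FPKM in shNC and at 15.6, 24.9 and 18.6 FPKM in shScamp1 libraries. Even the lowest knockdown library was above 2 times the highest control. The means of 6.57 ± 0.409 and 19.7 ± 4.79 FPKM (SD, n = 3 each) were 3.00-fold apart, 2.60-fold without shScamp1 replicate 2, and the log2 fold change was 1.54 (SE 0.17, adjusted p = 0.00309). ITGA2 is on chromosome 5 (52989326 to 53094779, forward strand), and ITGA1 ends 30.1 kb before it on the same strand. ITGA1 was at 2.67, 2.54 and 2.61 FPKM in shNC and at 3.19, 4.43 and 3.57 FPKM in shScamp1 libraries. The groups did not overlap, but the adjusted p was 0.0553 (log2 fold change 0.49, 95% interval 0.18 to 0.80). It was 0.0265 without shScamp1 replicate 2 and 0.0382 without shScamp1 replicate 1. The ratio of ITGA2 to ITGA1 went from 2.52 to 5.23, with no overlap (exact permutation test, two-sided, p = 0.1). ITGA10 and ITGA11, the other collagen receptor subunits, had at most 5 reads per library.

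**Figure D4:**
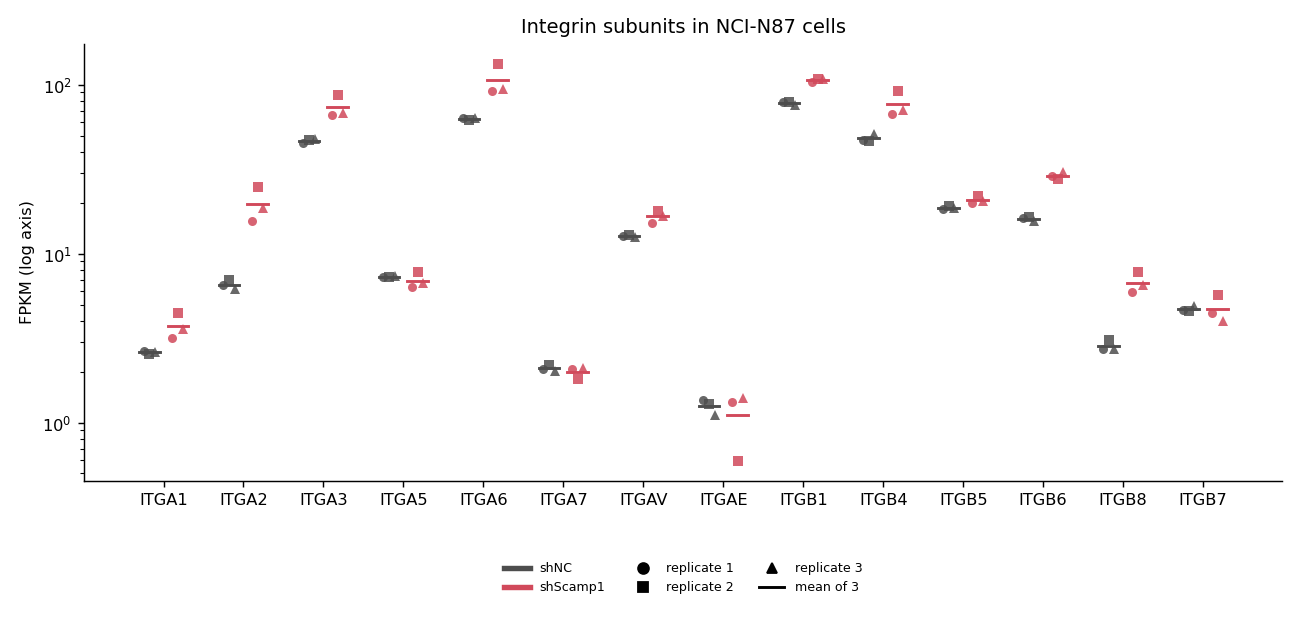
FPKM of the 14 integrin subunits tested, on a log axis, with alpha subunits at the left and beta subunits at the right, 1 point per library (shape gives the replicate number), grey for shNC and red for shScamp1, and a bar at the mean of 3. ITGA2, at 6.57 against 19.7 FPKM, and ITGB8, at 2.84 against 6.75 FPKM, are separated most, and the square of shScamp1 replicate 2 is the top red point for most subunits.

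Of the beta subunits that pair with ITGAV, ITGB1, ITGB6 and ITGB8 rose, ITGB5 did not pass the threshold and ITGB3 was below the filter. These receptors bind the RGD sequence of matrix proteins, and αVβ6 and αVβ8 are known for releasing active TGF-beta from its latent form. ITGB8 was at 2.74, 3.07 and 2.72 FPKM in shNC and at 5.90, 7.79 and 6.55 FPKM in shScamp1 libraries. The lowest knockdown library was nearly 2 times the highest control. Its log2 fold change was 1.21 (SE 0.12, adjusted p = 0.00206), 1.10 without shScamp1 replicate 2, and the gene is on chromosome 7 (20330702 to 20415754, forward strand). ITGB6 was at 16.2, 16.5 and 15.6 FPKM in shNC and at 28.98, 27.5 and 30.5 FPKM in shScamp1 libraries. It was 1 of the 2 called genes for which shScamp1 replicate 2 was not the highest of its group, the other being ITGB1. The log2 fold change of ITGB6 was 0.84 (SE 0.07, adjusted p = 0.00107) and 0.88 without that library. ITGB5 was at 18.3, 19.1 and 18.5 FPKM in shNC and at 19.8, 22.0 and 20.6 FPKM in shScamp1 libraries. The groups did not overlap, but the log2 fold change of 0.16 (adjusted p = 0.167) did not pass. ITGAV was at 12.7, 12.9 and 12.6 FPKM in shNC and at 15.3, 17.8 and 16.8 FPKM in shScamp1 libraries. It rose with a log2 fold change of 0.38 (SE 0.08, adjusted p = 0.0217), 0.33 without shScamp1 replicate 2, and its adjusted p was between 0.0866 and 0.0985 without shNC replicate 1, 2 or 3 or shScamp1 replicate 3. The ratio of ITGB6 to ITGB5 went from 0.864 to 1.39 (exact permutation test, two-sided, p = 0.1). By FPKM, ITGB6 lay below ITGB5 in each shNC library and above it in each shScamp1 library. However, exons of ITGB6 share 20.6% of their length with exons of AC092153.1 on the same strand. How reads there were counted is not stated, so which of the 2 subunits was more abundant is uncertain. The ratio of ITGB8 to ITGAV went from 0.224 to 0.404 and that of ITGB5 to ITGAV from 1.47 to 1.25, both without overlap. ITGB3 had at most 2 reads per library.

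ITGA5, the alpha subunit of the fibronectin receptor α5β1, was at 7.27, 7.32 and 7.36 FPKM in shNC and at 6.37, 7.75 and 6.67 FPKM in shScamp1 libraries. The control libraries lay within the range of the knockdown libraries, and the log2 fold change was -0.08 (95% interval -0.30 to 0.13, adjusted p = 0.567). Its adjusted p was 0.0538 without shScamp1 replicate 2, with a log2 fold change of -0.17. The share of ITGA5 in the summed FPKM of alpha subunits went from 5.13%, 5.13% and 5.14% in shNC to 3.17%, 2.79% and 3.16% in shScamp1 libraries. ITGAE and ITGB7, which form a receptor of lymphocytes in epithelia that binds E-cadherin, were at 0.593 to 1.40 FPKM and at 3.98 to 5.66 FPKM. Neither passed (adjusted p = 0.650 and 0.936). Their values are uncertain, because exons of ITGB7 share 42.1% of their length with exons of ZNF740 on the opposite strand, exons of ITGAE share 6.41% with HASPIN, and the counting is not stated to use strand. The subunits of leukocyte and platelet receptors (ITGA2B, ITGA4, ITGAD, ITGAL, ITGAM, ITGAX, ITGB2 and ITGB3) were below the filter, with at most 60 reads in any library. ITGB2 had 60, 52 and 56 reads in shNC and 44, 23 and 41 reads in shScamp1 libraries, and ITGA2B had 16, 21 and 13 against 4, 2 and 7 reads. Both were lower without overlap, and tested without the filter their adjusted p was 0.548 and 0.162. ITGA8 had 0 reads in all libraries, and ITGA9 had at most 7.

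Both subunits were above the filter for 12 of the 24 integrin pairs considered. The level of the scarcer subunit was higher in shScamp1 cells without overlap for 9 of the 12 pairs, and lower without overlap for 0, where 20.4% of all single genes were higher and 21.0% lower without overlap. Pairs share subunits, so these 9 are not independent. α6β4, limited by ITGB4 in all libraries, went from 48.2 ± 2.28 to 76.6 ± 13.5 FPKM (SD, n = 3 each), and α3β1, limited by ITGA3, went from 46.7 ± 1.18 to 73.7 ± 11.8 FPKM. α6β1 had the highest limiting level, 63.0 FPKM in shNC and 97.6 FPKM in shScamp1 cells. It was limited by ITGA6, but by ITGB1 in shScamp1 replicate 2. As α6β4 uses ITGA6 too, the levels of α6β1 and α6β4 could not both be reached at once. The same holds for α3β1, α6β1, α2β1 and αVβ1, which share ITGB1 (78.2 FPKM in shNC and 106 FPKM in shScamp1 cells). α2β1, limited by ITGA2, was 3.00-fold higher. αVβ1, αVβ5 and αVβ6 were each limited by ITGAV, so the larger rise of ITGB6 did not enter, and they were 1.31-fold higher. αVβ8 was limited by ITGB8 and was 2.37-fold higher. The groups overlapped for α5β1, α7β1 and αEβ7. For each pair without overlap the exact permutation test, two-sided, gave p = 0.1, the smallest it can give here. Summed over all subunits, alpha chains went from 142.6 ± 0.776 to 230.0 ± 41.7 FPKM and beta chains from 169 ± 0.327 to 245 ± 16.8 FPKM (SD, n = 3 each). RNA levels do not show how much of a pair was assembled or at the cell surface.

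**Figure D5:**
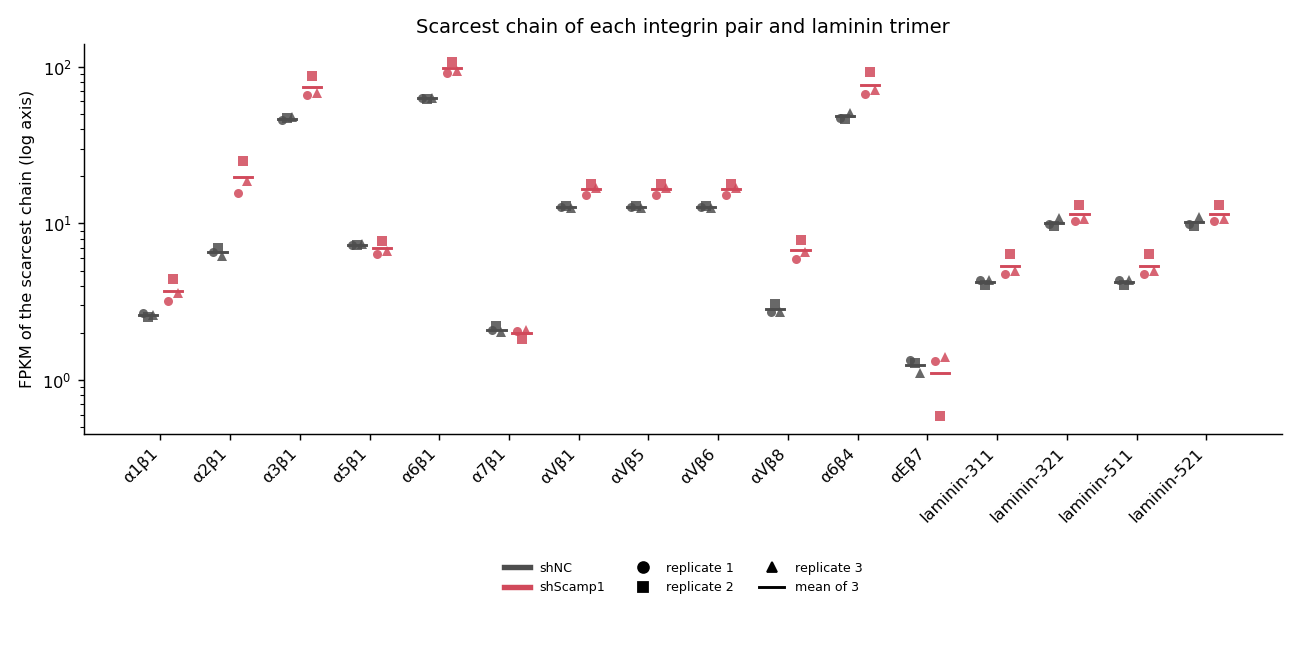
FPKM of the scarcest chain of the 12 integrin pairs and 4 laminin trimers whose chains were all tested, on a log axis, 1 point per library (shape gives the replicate number), grey for shNC and red for shScamp1, and a bar at the mean of 3. Red points lie above grey points for 9 pairs and 2 trimers, among them α2β1 (6.57 against 19.7 FPKM) and laminin-511 (4.25 against 5.37 FPKM). Both of these trimers show the values of LAMB1, and αVβ1, αVβ5 and αVβ6 those of ITGAV.

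The partners of these receptors were taken from 5 lists of 84 genes, of which 62 were tested, 16 rose and 5 fell, against 8.82% of all genes tested that were called higher and 5.17% lower. These 21 became between 7 and 9 without shNC replicate 1, 2 or 3 or shScamp1 replicate 3. In those fits all genes called higher went from 1372 to between 644 and 716, and those called lower from 805 to between 164 and 314. Without shScamp1 replicate 2 the 21 became 32, against 14.7% of all genes called higher and 13.2% lower. Of the 10 laminin receptors and hemidesmosome partners, 9 were tested, 1 rose and 0 fell (median log2 fold change 0.25), close to the 8.82% and 5.17% of all genes. SDC4, a heparan sulfate co-receptor of integrins at focal adhesions, was at 108, 107 and 109 FPKM in shNC and at 166, 217 and 163 FPKM in shScamp1 libraries. It rose by 0.74 on the log2 scale (adjusted p = 0.0123, and 0.0604 to 0.0651 without shNC replicate 1, 2 or 3), and by 0.61 without shScamp1 replicate 2. PLEC, which links ITGB4 to keratin, had a log2 fold change of 0.63 that did not pass (adjusted p = 0.0891), and that passed without shScamp1 replicate 2 (adjusted p = 0.00513). COL17A1 (0.25) and CD151 (-0.30), further hemidesmosome partners, had adjusted p of 0.0857 and 0.397. Without shScamp1 replicate 2 their log2 fold changes were 0.19 and -0.04. CD151 was at 22.2 FPKM in that library and at 40.2 and 37.1 FPKM in shScamp1 replicates 1 and 3. Without shScamp1 replicate 2, 4 genes of the list rose and 1 fell, where 14.7% and 13.2% of all genes did.

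Of 13 basement membrane partners, 5 were tested, 2 rose and 0 fell (median log2 fold change 0.43), against 8.82% and 5.17% of all genes. NTN4, netrin-4, a laminin-related protein that binds laminin gamma 1 and disturbs laminin networks, was at 7.48, 7.65 and 8.28 FPKM in shNC and at 28.99, 27.3 and 27.4 FPKM in shScamp1 libraries. The replicates of each group were close together, and the log2 fold change of 1.82 (SE 0.07, adjusted p = 0.000168) was above those of LAMA3 and LAMB3. AGRN, agrin, which connects laminins to cell receptors, had a log2 fold change of 0.43 (adjusted p = 0.0121, and 0.0595 to 0.0746 without shNC replicate 1 or 2 or shScamp1 replicate 3). The nidogens NID1 and NID2, which join laminin to collagen IV, had at most 9 reads per library.

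Of 22 other integrin ligands and latent TGF-beta genes, 13 were tested, 1 rose and 3 fell (median log2 fold change 0.25), and the background shares were again 8.82% higher, near the share here, and 5.17% lower. TNC, tenascin-C, a ligand of αV and α9 integrins, was at 1.604, 1.93 and 1.70 FPKM in shNC and at 0.362, 0.455 and 0.319 FPKM in shScamp1 libraries. It fell by 1.95 on the log2 scale (adjusted p = 0.00227). TGFB1, the cytokine whose latent form αVβ6 and αVβ8 bind, was at 24.9, 25.1 and 25.7 FPKM in shNC and at 14.8, 15.1 and 13.6 FPKM in shScamp1 libraries. It fell by 0.80 on the log2 scale (adjusted p = 0.00124), while ITGB6 and ITGB8 were higher. NPNT, nephronectin, a ligand of α8β1, fell by 0.34 (adjusted p = 0.0126, and 0.0613 to 0.0781 without shNC replicate 1, 2 or 3 or shScamp1 replicate 3). CDH1, E-cadherin, rose by 0.45 (adjusted p = 0.0311, and 0.0738 to 0.122 without the same libraries). Without shScamp1 replicate 2, 4 genes of the list rose and 3 fell, against 14.7% and 13.2% of all genes. FN1, fibronectin, had a log2 fold change of 0.63 that did not pass (adjusted p = 0.0710).

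Of 24 adaptors and activators inside the cell, 21 were tested, 4 rose and 2 fell (median log2 fold change 0.02), beside 8.82% and 5.17% over all genes. LIMS1, the adaptor PINCH-1, rose by 0.63 (adjusted p = 0.00431), BCAR1, the docking protein p130Cas, by 0.57 (adjusted p = 0.00289) and TNS4, a tensin that binds beta tails, by 0.60 (adjusted p = 0.0382). DOK1, which competes with talin for beta tails, fell by 0.57 (adjusted p = 0.0225). FERMT1 was the other gene called higher and PARVB the other called lower. TNS4 did not pass without shNC replicate 1, 2 or 3 or shScamp1 replicate 3 (adjusted p 0.0792 to 0.133), nor DOK1 without shNC replicate 1 or 2 or shScamp1 replicate 3 (0.0811 to 0.106). TLN1, talin 1, which activates integrins, had a log2 fold change of 0.12 (adjusted p = 0.692), and PTK2, focal adhesion kinase, one of 0.02 (adjusted p = 0.858).

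Of 15 genes for integrin traffic, 14 were tested, 8 rose and 0 fell (median log2 fold change 0.26), with 8.82% higher and 5.17% lower among all genes. Without shScamp1 replicate 2, 9 rose and 1 fell (14.7% and 13.2% of all genes). With the replicate number as a block 2 were called, against 4.53% of all genes called higher and 1.63% lower. RAB11FIP1, an effector of recycling endosomes, was at 9.80, 9.22 and 9.64 FPKM in shNC and at 17.4, 25.6 and 18.9 FPKM in shScamp1 libraries. Its log2 fold change was 1.08 (SE 0.15, adjusted p = 0.00661). CLIC3, which takes part in the return of α5β1 from late endosomes, rose by 0.73 (adjusted p = 0.0155), RAB5A of early endosomes by 0.45 (adjusted p = 0.0204) and RAB21, which binds alpha tails, by 0.32 (adjusted p = 0.0382). Of these, CLIC3 and RAB5A did not pass without shNC replicate 1, 2 or 3 or shScamp1 replicate 3 (adjusted p 0.0562 to 0.0842), and RAB21 passed only without shScamp1 replicate 2. RAB11A, ARF6 and RASA1, called as well, also did not pass without those libraries or shScamp1 replicate 1 (adjusted p 0.0624 to 0.190). DAB2, below 1 FPKM on average, was the last of the 8. SNX17, which keeps beta subunits from degradation, had a log2 fold change of -0.24 (adjusted p = 0.159).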

How the data were processed

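RNA of NCI-N87 cells was sequenced in 3 shNC and 3 shScamp1 libraries. The authors deposited FPKM per gene and library with coordinates, length and biotype, and the submitters' processing notes name hg38, HISAT2 2.0.5, featureCounts 1.5.0-p3 and DESeq2 1.20.0. The coordinates and lengths of all 37 genes equalled those of GENCODE 29. In each library, FPKM times length came in whole multiples (within 0.05) of 1 step for 100% of values, so the reads on each gene could be recovered. The library size in that step was not the sum of these reads, its source is not given in the sources used here, and no scaling was added.

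Python 3.11.15, pandas 2.3.3, R 4.3.3 and limma 3.58.1 were used. Genes averaging 0.5 FPKM or more were fitted (lmFit, then eBayes with a trend) on log2(FPKM + 0.1), which understates the change of low genes. Fold changes on that scale, intervals and p-values come from this fit across all genes, with Benjamini-Hochberg adjustment. The fit was tested on simulated reads. Some genes of these families and lists, which stayed in the fit, are not reported here. Subunit ratios and scarcest chains were compared by exact two-sided permutation tests. The members, lists, pairs and named genes were chosen with earlier results of these data known. From each partner list up to 4 called genes averaging 1 FPKM or more were named, the largest changes first, and partners named without passing, or as remaining calls, were added with their values known. Alternatives covered the pseudocount, filter, scaling, trend, voom, biotypes, block, unadjusted p and each library left out.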

Additional observations from a re-analysis of the deposited data

How the results depend on the processing

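No integrin or laminin gene was called lower under any of the 17 alternatives, and ITGA2, ITGB6, ITGB8 and LAMB3 were called higher in all of them. The 10 genes called higher became 6 with the replicate number as a block (replicate block), which lost ITGA6, ITGAV, ITGB1 and ITGB4 (adjusted p 0.0561 to 0.0741), and 5 to 11 when 1 library was left out. The 21 partner genes called became 8 with the replicate block and 7 to 32 when 1 library was left out, the most without shScamp1 replicate 2. Among all genes, the 1372 called higher became 704 with the replicate block and 644 to 2280 when 1 library was left out. The 805 called lower became 254 and 164 to 2050. Nothing in the labels ties libraries of the same number. Their deviations from the group means correlated at -0.04, 0.03 and 0.07 across genes, and 3 of 6 libraries correlated best with their own number. With 3 libraries per group, these values cannot decide whether libraries were paired by number. The log2 fold change changed sign for 3 genes that were not called: with 1 library left out, ITGAE ranged from -0.43 to 0.12 and LAMC1 from -0.0092 to 0.28, both crossing 0 without shScamp1 replicate 2, and ITGB7 ranged from -0.159 to 0.089. ITGA6 was not called without a filter on low values (adjusted p = 0.0546). Over the 20 genes and all alternatives, 305 of 340 values kept their direction and side of the threshold. Of the others, 23 lost a call, all among the 10 called genes, 7 gained one and 5 changed sign. The alternatives of filter, trend, block, biotypes and unadjusted p leave the log2 fold change as it was, so its direction could not change in them. The cause of these changes was not tested. The 14311769 to 15988700 reads per library limit what can be seen of genes with few reads, such as LAMA4.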
